A study of Arabidopsis thaliana with 28 samples.

Results

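TCF1 (AT3G55580) encodes a protein of the RCC1 family and is a gene known to respond to cold in Arabidopsis thaliana. It was followed here through its 1 probe set in all 14 groups of the series, as 1 gene among 13286 loci measured by a probe set that names a single gene. The gene was chosen by its high signal in cold-treated plants, so its difference between cold and warm wild type is given as a description, with no test.

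Proteins of the RCC1 family carry repeats that fold into a propeller. The founding member in animals acts at chromatin on the small GTPase Ran, and the best known plant member is the UV-B photoreceptor UVR8. TCF1 is known as a nuclear protein that associates with histones and acts in freezing tolerance apart from the CBF pathway, through the blue copper-binding protein gene BCB and the synthesis of lignin, the phenolic polymer that stiffens cell walls.

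Transcript signals were measured on 28 single-colour arrays, 2 per group, with RNA from the whole aerial part of 12-day-old plants of accession Col-0. Growth was at 22°C under continuous light of 100 µmol per m² and second. A cold experiment held wild type (WT) at 22°C and WT at 4°C for 24 h, and light in the cold was lowered to about 30 µmol, so the effects of temperature and of light cannot be told apart. All remaining groups stayed at 22°C. They were a second WT group labelled as the control for the lines and 11 lines that each overexpress 1 factor: ZAT10, CZF1 and ZF (AT4G29190) of the zinc finger type, CRF2, CRF3, DEAR1, ERF5 and RAV1 of the AP2 type, MYB73 and MYB44, and HSFC1. Promoters and numbers of independent transformants are not given in the sources used here, and the replicates are called biological with no further origin, so p-values measure the spread between these arrays. In bulk tissue, fewer cells that express a gene and less RNA per cell cannot be told apart.

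The 6 arrays of the cold experiment and of CZF1 had median log2 signals from 5.77 to 5.84, and the other 22 arrays from 5.33 to 5.48. The labels do not mention such a split, and it separates the lines' control from the WT of the cold experiment. The antenna protein gene LHCB4.1, an aerial tissue marker, lay between 12.03 and 13.48 on every array at 22°C, and LHCB4.3 of the same antenna family between 6.29 and 9.57. The root markers were the expansin genes EXPA7 (3.12 to 6.42) and EXPA18 (3.96 to 6.07), the peroxidase genes PRX57 (6.25 to 8.87) and PRX27 (5.02 to 8.09), and PYK10 (11.15 to 13.24), a β-glucosidase gene that seedling shoots also express. Of the aerial and root markers listed, 2 of 7 and 5 of 10 were named on the array. The mean log2 signal over the 5 root markers differed between replicates by more than 1 unit in CRF3 (7.68 and 6.26), DEAR1 (6.57 and 8.01) and MYB44 (7.19 and 6.06). Between cold and warm WT 0 of 2 aerial and 0 of 5 root markers were called by limma, where 27.2% of all tested probe sets were. Of the 7 markers 0 had an unadjusted p under 0.05. Their median difference was -0.67 for the aerial markers, with both lower in the cold, and 0.43 for the root markers, with 4 higher and 1 lower. The part of tissue make-up in the cold differences was not tested.

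TCF1 stood at log2 signals of 7.53 and 7.17 in the cold and at 3.39 and 3.39 in the WT of the same experiment at 22°C. The cold mean of 7.35 ± 0.25 (SD, n = 2) lay 3.96 ± 0.18 (SE) above the warm mean of 3.39 ± 0.00, a 15.6-fold difference in signal. Among all 26 arrays at 22°C the TCF1 signal ran from 3.39 to 4.36 with a median of 3.81, so both cold arrays lay above every warm array, with 2.81 log2 units between the lowest cold array and the highest warm one. Both cold arrays were above all 26 warm arrays in 2889 of the 15916 probe sets tested, those with a log2 signal over 4 on at least 2 arrays (18.2%), and by at least the 2.81 units of TCF1 in 26 (0.163%). TCF1 was chosen for its high signal in the cold, so its place among these probe sets is a description and adds no support.

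**Figure D1:**
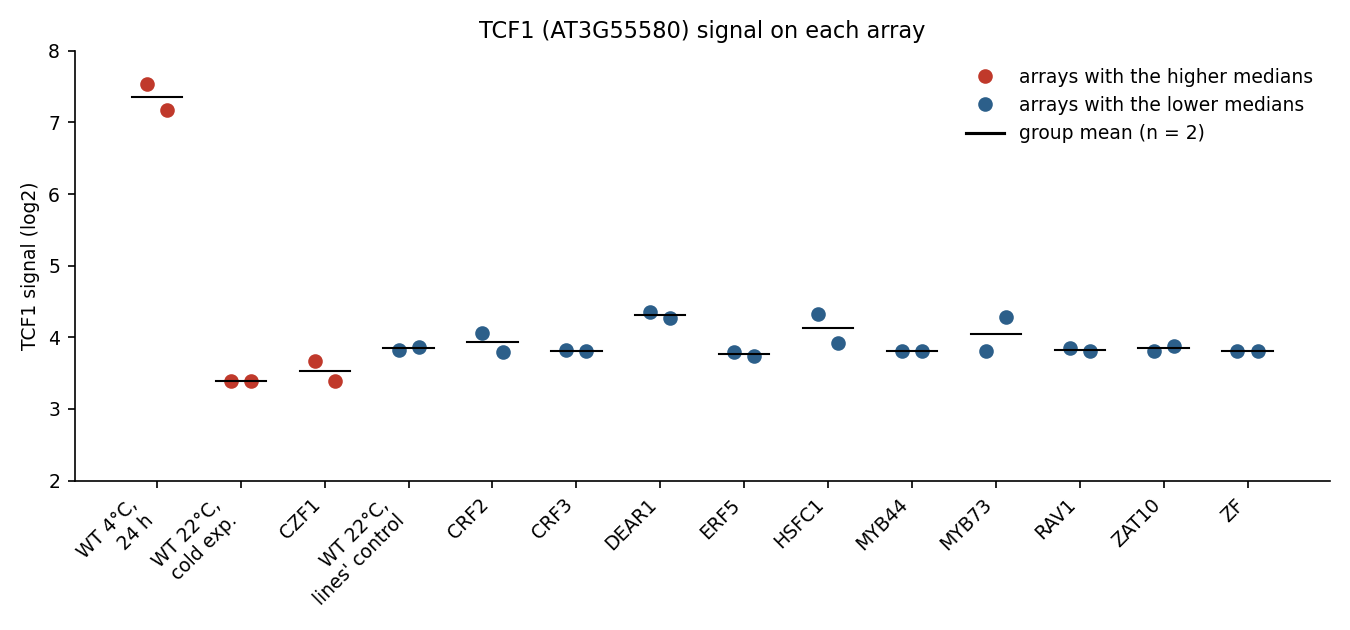
TCF1 signal (log2, y axis) on each of the 28 arrays by group (x axis); points are arrays, coloured by whether the array belongs to the 6 with the higher or the 22 with the lower medians, and lines are means of 2 arrays. The 2 cold arrays, at 7.53 and 7.17, lie above all arrays at 22°C, which run from 3.39 to 4.36.

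Part of the warm signals of TCF1 lay on flat levels. Of the 22 arrays with the lower medians 8 read exactly 3.81, and of the 6 with the higher medians 3 read exactly 3.39, these being both arrays of warm WT and 1 of CZF1. Both MYB44 arrays and both ZF arrays were at 3.81. A fold change against such a level depends on that level, and with it the 15.6-fold difference. Set against the lines' control, at 3.82 and 3.87, the cold mean was 3.51 higher, and it lay 3.60 above the warm WT after quantile normalization.

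In order of group means, the cold WT was followed by DEAR1 at 4.32 ± 0.06, HSFC1 at 4.12 ± 0.29, MYB73 at 4.05 ± 0.34, CRF2 at 3.93 ± 0.18 and the lines' control at 3.85 ± 0.04 (SD, n = 2 each). ZAT10, RAV1, CRF3, MYB44, ZF and ERF5 came next, with means from 3.85 down to 3.77, then CZF1 at 3.53 ± 0.20 and warm WT at 3.39. Beyond the gap of 3.04 between the cold and DEAR1, the step between neighbours in this order was 0.24 or less. The SD pooled over the 14 groups was 0.16, and only the step from ERF5 to CZF1, 0.24, and that from DEAR1 to HSFC1, 0.19, were larger than it among groups at 22°C. The step from ERF5 to CZF1 is also the step from the arrays with the lower medians to those with the higher ones.

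The lines ask whether raising a single cold-induced factor at 22°C moves TCF1. Its change passed the test, an adjusted p under 0.05 over all tested probe sets, in 0 of 11 lines against their control (limma, adjusted p from 0.178 to 1), and in 1 of 11, DEAR1, was the unadjusted p under 0.05. The upper ends of the 95% intervals ran from 0.06 in CZF1 to 0.85 in DEAR1, and the lowest lower end was -0.69, in CZF1. A signal 1 log2 unit above the control was therefore outside the interval in each line. This bound rests on a spread pooled over all groups. Among them warm WT, MYB44 and ZF, on the flat levels, had an SD of 0.00, and HSFC1 and MYB73 had 0.29 and 0.34. The intervals may thus be too narrow for lines off the flat level. The bound also depends on the control: against the WT of the cold experiment the difference was 0.93 ± 0.18 in DEAR1 and 0.74 ± 0.18 in HSFC1. All 11 comparisons share the 2 control arrays. The flat level of 3.81 was not a strict floor, as ERF5 read 3.80 and 3.74, but a fall below it could be hidden or read too small. A rise in transcript that begins below that level could likewise be hidden or read too small, so the bound holds for the signal only.

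DEAR1 is an AP2/ERF factor of the DREB type, related to the CBF proteins. TCF1 read 4.36 and 4.27 in this line, over both control arrays, at 3.82 and 3.87, a difference of 0.47 ± 0.18 (95% interval 0.09 to 0.85, limma adjusted p = 0.367). Of all tested probe sets 0.251% were called in this comparison. The 3' minus 5' GAPDH signal, a sign of RNA quality, was 1.37 and 1.29 in DEAR1 and 0.75 and 0.91 in the control, and that of ubiquitin 1.56 and 1.78 against 1.27 and 1.20. The mean over the 5 root markers was 6.57 and 8.01 in DEAR1 and 7.62 and 7.84 in the control. The part of RNA quality or of these markers in the TCF1 difference was not tested.

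HSFC1 is a heat stress transcription factor of class C. Its arrays read 4.33 and 3.92 for TCF1, a difference of 0.28 ± 0.18 from the control (interval -0.10 to 0.66, limma adjusted p = 0.371), where 11.8% of probe sets were called. Both arrays were above both control arrays, as in DEAR1 and in no other line. The MYB73 arrays, at 3.81 and 4.29, lay on either side of the control, and their mean differed by 0.20 ± 0.18 (limma adjusted p = 1). In CRF2, a cytokinin response factor, TCF1 read 4.06 and 3.80 and differed by 0.09 ± 0.18 (limma adjusted p = 1). No probe set was called by limma in MYB73 or CRF2 (0% each), with 448 and 985 of 15916 at an unadjusted p under 0.05.

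Of the lines without a higher mean, ZAT10 differed from the control by 0.00, and RAV1, CRF3, MYB44, ZF and ERF5 by -0.02, -0.03, -0.04, -0.04 and -0.08, each with an SE of 0.18. In these comparisons 4.66%, 0.00628%, 8.6%, 1.69%, 7.12% and 0.0817% of probe sets were called. ZAT10 and ZF, both zinc finger factors, thus had 741 and 1133 probe sets called, with TCF1 at or near its flat level.

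CZF1, a CCCH zinc finger factor, needs both WT groups, because its arrays have the higher medians of the cold experiment. Against the lines' control TCF1 differed by -0.32 ± 0.18 (adjusted p = 0.178), where 36.3% of probe sets were called and the median of all tested probe sets was 0.43. Against the WT of the cold experiment, whose arrays also have the higher medians, TCF1 read 3.67 and 3.39 against 3.39 and 3.39, a difference of 0.14 ± 0.18 (interval -0.24 to 0.52, adjusted p = 0.892), and 1.04% of probe sets were called.

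The 2 WT groups at 22°C did not overlap in TCF1, at 3.39 and 3.39 in the cold experiment and 3.82 and 3.87 in the lines' control. Their difference of -0.46 ± 0.18 had an adjusted p of 0.059, in a comparison that called 33.9% of probe sets, and became -0.88 when taken from the median of all tested probe sets, 0.42. It is about as large as that of DEAR1 from its control. Against the cold experiment's WT instead, TCF1 was called higher in CRF2, DEAR1, HSFC1 and MYB73, by 0.54 to 0.93. In these fits the group and the split by array medians cannot be told apart.

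**Figure D2:**
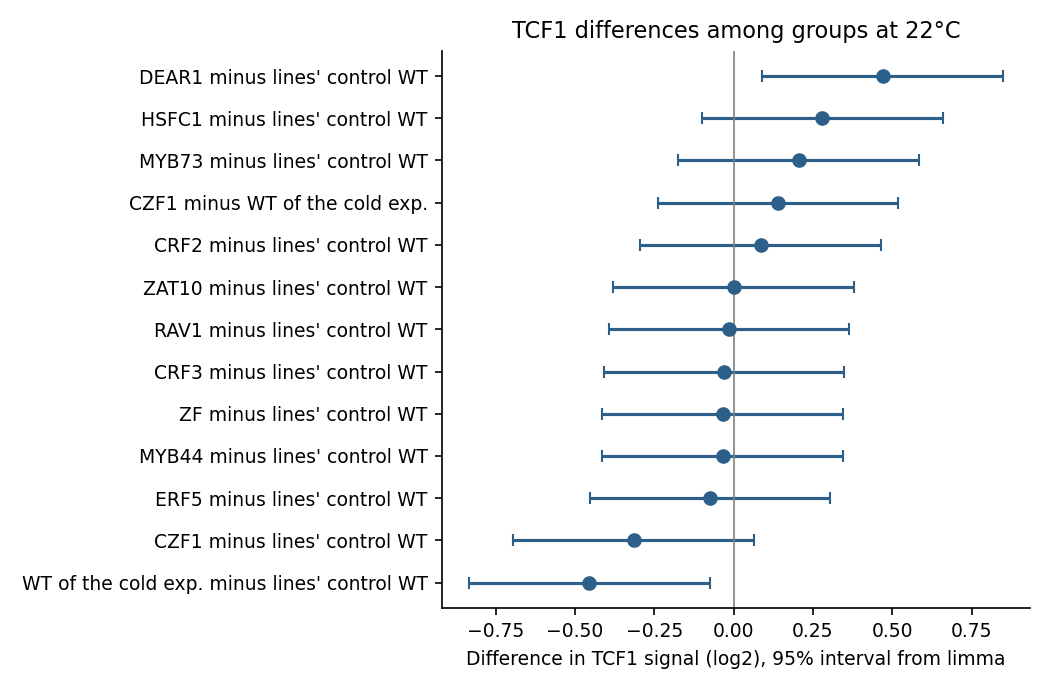
Differences in TCF1 signal between groups at 22°C (x axis, log2, with 95% intervals from limma) for the 11 lines, the 2 WT groups and CZF1 against both WT groups (y axis). Intervals of DEAR1 and of the 2 WT groups leave out 0, at 0.09 to 0.85 and -0.83 to -0.08, and neither passed after adjustment.

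Cold-regulated genes were compared with TCF1 array by array. Of 14 genes listed for the CBF pathway and its targets, 5 were named on the array: COR15A and COR15B, whose products protect chloroplast membranes in freezing, the dehydrins COR47 and LTI30, and COR27, a regulator of the circadian clock. All 5 of 5 rose in the cold WT, where 14.1% of all tested probe sets were called higher. At 22°C their signals spread over 3.79, 3.66, 5.64, 4.43 and 3.64 log2 units from the lowest to the highest array, and that of TCF1 over 0.97. Part of the TCF1 arrays at 22°C were on its flat levels, which may cut off its spread from below. The smaller spread therefore does not show a tighter control. Single arrays also widen the other spreads: COR47 was lowest in DEAR1, at 6.35, where the second array read 8.19.

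In HSFC1 the list had 3 of 5 genes called higher, LTI30 by 2.19, COR15A by 1.80 and COR47 by 1.79 (limma adjusted p = 0.00294, 0.0121 and 0.0483), beside the 0.28 of TCF1. Of all tested probe sets 6.66% were called higher in this line. The 3' minus 5' GAPDH signal was 1.63 and 1.78 in HSFC1 and 0.75 and 0.91 in the control. The root marker mean was 7.06 and 6.98 against 7.62 and 7.84, with PRX57 at 7.13 against 8.68 and PRX27 at 6.04 against 7.68, and the aerial marker mean 9.94 and 10.36 against 10.96 and 11.04. No marker of the 7 was called by limma in HSFC1, 3 had an unadjusted p under 0.05, and the part of these signals in the 3 calls was not tested. LTI30 kept its call whichever array was left out, COR15A in 2 of 4 such fits and COR47 in 0 of 4, and COR15A lost it against the WT of the cold experiment, at 0.25. In CZF1 4 of 5 were called higher against the lines' control, where 32.4% of all tested probe sets were. Against the WT of the cold experiment 1 of 5 was called higher, where 0.792% of all tested probe sets were. This was COR27, which read 8.90 and 8.25 against 5.26 and 6.87. Its difference of 2.51 ± 0.42 (limma adjusted p = 0.00493) stands beside 0.14 for TCF1, and its call was lost without CZF1 replicate 1 or WT replicate 1 (adjusted p = 0.105 and 0.0826) and with only these groups fitted (adjusted p = 0.268). ZAT10 had 1 of 5 called lower, COR15A, with a difference of -1.61 (limma adjusted p = 0.0473, held in 0 of 4 fits with an array left out), where 2.12% of all tested probe sets were called lower. The aerial marker LHCB4.3 was also called lower in ZAT10, at 6.32 and 6.29 against 8.67 and 8.97 (limma adjusted p = 0.0127), and its part in the COR15A call was not tested. TCF1 was at or near its flat level there, at 3.81 and 3.88, so a fall in it could be hidden or read too small. The other 8 lines had 0 of 5 called by limma against their control, with 14 gene-by-line differences at an unadjusted p under 0.05. In DEAR1 the 5 differences ran from -2.65 in COR47 to 1.07 in COR27. Whether TCF1 differs from these genes in its response to a line was not tested.

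**Figure D3:**
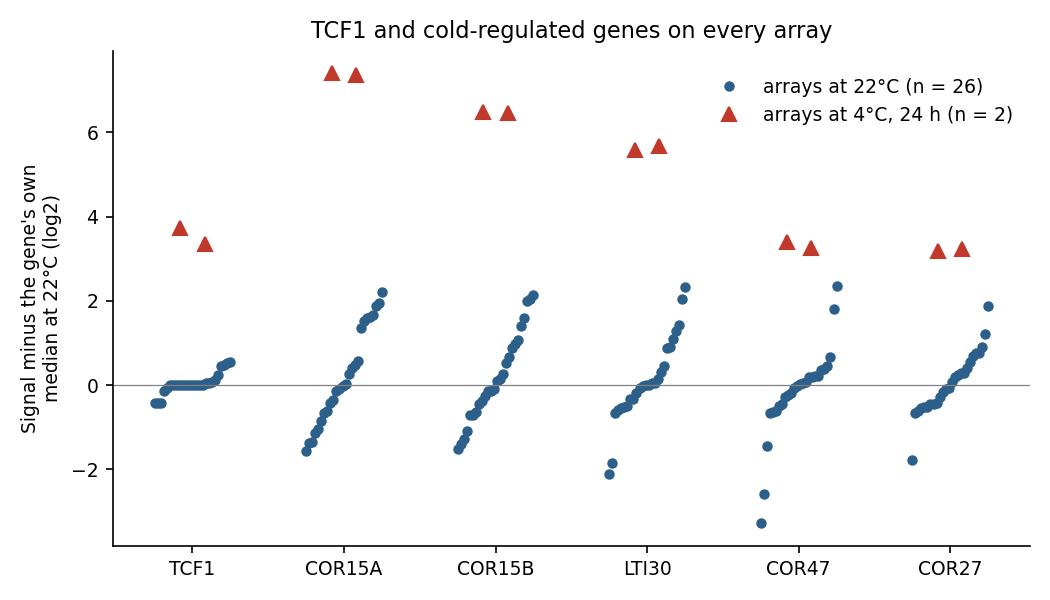
Signal of TCF1 and of 5 cold-regulated genes (x axis) on every array, as the difference from the gene's own median over the 26 arrays at 22°C (y axis, log2); dots are arrays at 22°C in rising order and triangles the 2 cold arrays. The TCF1 dots span 0.97 and those of COR47 5.64, and part of the TCF1 dots lie on flat levels that may cut off its spread from below.

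The lignin route, which TCF1 is known to affect, could be followed only in part. Of 23 genes listed for it, 3 were named on the array, and BCB and the PAL genes at the entry of the route were not among them. HCT, which makes the shikimate esters on the way to lignin monomers, read 8.80 and 8.72 in the cold and 9.61 and 9.71 in warm WT. It fell by 0.90 (SE 0.25, limma adjusted p = 0.0121), a call lost without cold replicate 2 or warm WT replicate 2 (adjusted p = 0.0713 and 0.0728). PRX72, a peroxidase of lignin polymerisation, read 6.63 and 5.99 in the cold and 5.14 and 4.80 in warm WT, a rise of 1.34 ± 0.48 (limma adjusted p = 0.0442).

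The call of PRX72 held in 0 of 4 fits that left an array out (adjusted p 0.0614 to 0.269). In the lines' control PRX72 read 6.17 and 6.44, a mean of 6.30 against 6.31 in the cold, so the rise was seen against 1 of the 2 WT groups. Between these WT groups PRX72 was called lower in that of the cold experiment (limma adjusted p = 0.0389), where 3.74% of all tested probe sets were. The root marker mean was 6.81 and 6.76 in that WT and 7.62 and 7.84 in the lines' control, with 4 markers lower and 1 higher. None of the 5 was called by limma, and 3 had an unadjusted p under 0.05, as had 7232 of 15916 probe sets. The part of these markers in the PRX72 or TCF1 difference between the WT groups was not tested. CCR2, a cinnamoyl-CoA reductase, did not pass the filter on low signals, with 3.76 and 3.46 in the cold and 2.88 and 2.72 in warm WT. Of the 2 tested genes, 1 rose and 1 fell, where 27.2% of all tested probe sets were called. In the 11 lines neither HCT nor PRX72 was called, where from 0% of all tested probe sets (CRF2 and MYB73) to 36.3% (CZF1) were called against the lines' control. In MYB44 1 of the 2 genes had an unadjusted p under 0.05 by limma. This was PRX72, at 6.01 and 4.48.

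The RCC1 repeat family held 22 other listed loci, of which 15 were named on the array and 13 passed the filter. In the cold 3 of 13 rose and 1 of 13 fell, where 14.1% and 13.1% of all tested probe sets were called, and the median difference of the 13 was 0.20 against -0.03 over all tested probe sets. AT5G16040 read 9.07 and 8.95 in the cold and 7.30 and 7.10 in warm WT, a rise of 1.81 ± 0.19 (limma adjusted p = 1.87e-06). Its cold arrays were also above all 26 warm arrays, by 1.08.

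AT1G19880 went from 7.21 and 6.78 to 8.21 and 8.09, a rise of 1.16 ± 0.18 (limma adjusted p = 0.000128). AT3G15430 went from 7.34 and 7.42 to 7.98 and 8.06 (0.64 ± 0.18, limma adjusted p = 0.0121), and this call was lost without cold replicate 2 or warm WT replicate 1 (adjusted p = 0.0756 and 0.0747). In AT3G02300 the signal went the other way, from 8.16 and 8.46 to 7.01 and 7.19, and fell by 1.21 (SE 0.19, limma adjusted p = 9.17e-05). The groups did not overlap in any of these 4 genes, which were picked by their calls in the same comparison, so this adds no support.

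The other 9 differences ran from -0.64 in AT3G26100 to 0.39 in AT3G03790, and PRAF1 was at 0.22 ± 0.22. AT3G47660 and AT3G23270 did not pass the filter, with group means of 2.30 or less in every group. None of the 13 rose by as much in the cold as TCF1, whose 3.96 chose it for description.

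**Figure D4:**
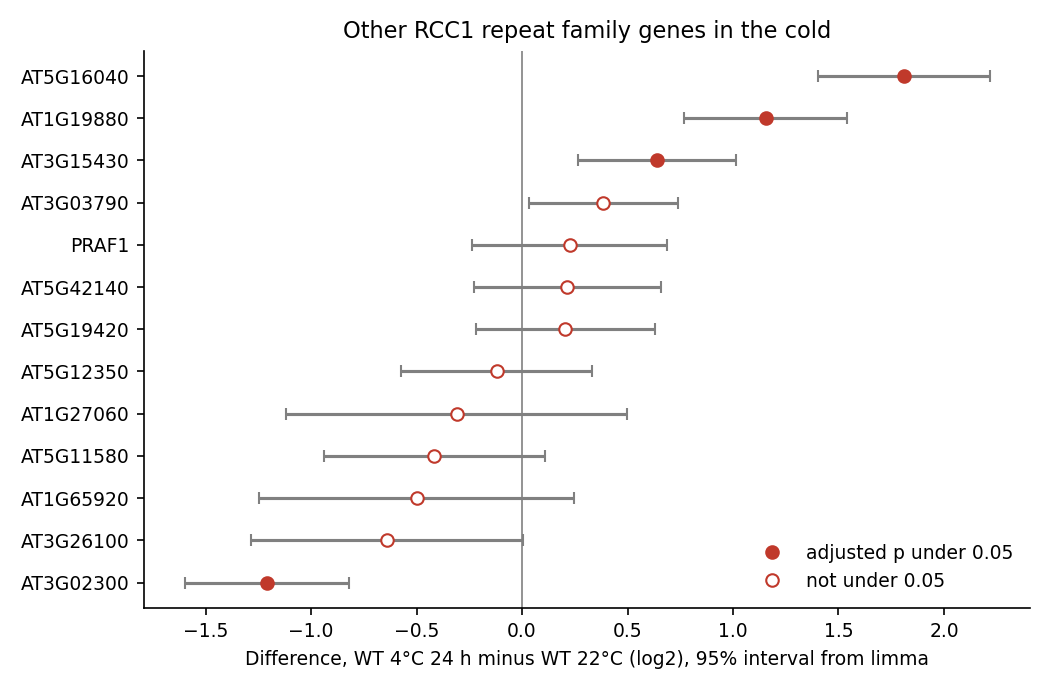
Differences between WT at 4°C for 24 h and WT at 22°C (x axis, log2, with 95% intervals from limma) for the 13 tested genes of the RCC1 repeat family other than TCF1 (y axis); filled points passed adjusted p under 0.05. AT5G16040, AT1G19880 and AT3G15430 are filled on the right and AT3G02300 on the left.

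In the lines, RCC1 family calls were few. AT1G27060 rose in CRF3 by 1.32 ± 0.39, with 1 of 13 genes called in that line, and AT5G16040 rose in ZF by 0.72 ± 0.19, also 1 of 13 (limma adjusted p = 0.042 and 0.0303). Of all tested probe sets 5.79% were called higher in CRF3 and 4.92% in ZF, so 1 of 13 is near the background. The first call held in 1 and the second in 0 of 4 fits with an array left out, and AT5G16040 in ZF stood at -0.30 against the WT of the cold experiment. CZF1 had 4 of 13 called higher against the lines' control, where 32.4% of all tested probe sets were called higher, and 0 of 13 by limma against the WT of the cold experiment, with 1 at an unadjusted p under 0.05. The other 8 lines had 0 of 13 called by limma, with 8 gene-by-line differences at an unadjusted p under 0.05.

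Between the 2 WT groups 4 of 13 family genes were called higher in the cold experiment's WT, near the 30.2% of all tested probe sets called higher. AT5G16040 was among them with a difference of 1.02, which became 0.55 after quantile normalization (limma adjusted p = 0.0011 and 0.0876).

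The genes whose group means followed those of TCF1 most closely were sought among 8654 tested genes by Pearson's r over the 14 groups. The 8 closest were ATL5, AT4G30830, AT3G55940, AT2G24560, AT1G27200, AT3G03060, LEA4-5 and AT1G69570, with r from 0.98 to 0.96. ATL5 is of the ATL family of RING finger ubiquitin ligases, and LEA4-5 is a late embryogenesis abundant protein of water deficit. The points share arrays and the single cold group, and without that group r ran from -0.12 in LEA4-5 to 0.57 in ATL5 over the 13 groups at 22°C. With Spearman's rho 0 of the 8 remained among the closest 8, and with Pearson's r over the 28 arrays 7 did.

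AT3G55940 read 5.78 and 6.26 in the cold and no more than 2.49 on any array at 22°C. For AT4G30830 the cold arrays were at 6.69 and 7.41 and the highest warm array at 3.75. AT2G24560 was at the table's lowest value on all 26 warm arrays and at 4.99 and 6.37 in the cold. Each of the 3 passed the filter on low signals only through the 2 cold arrays. So did LEA4-5 and AT1G69570, at no more than 2.53 and 3.2 on any array at 22°C. The filter and the choice by r, which rests on the cold group, thus fixed that these genes are high in the cold alone.

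Over the 13 groups at 22°C alone the closest were AT3G19320, AT4G27660, AT4G33620, AT2G17000 and AT1G33320, with r from 0.90 to 0.86, and 0 of these 5 were among the 8 above. AT3G19320 read 2.14 and 2.13 in warm WT and had means of 2.67 in CZF1, 4.01 in the lines' control and 4.70 in DEAR1. This is the order of TCF1 in those groups, and in the cold AT3G19320 was at 3.33 and AT4G27660 at 2.98. For each of the 5 genes the lowest means at 22°C were those of warm WT and CZF1, the groups there with the higher array medians. Single arrays did not all follow. AT4G33620 read 4.19 on warm WT replicate 1 and AT2G17000 3.47 on CZF1 replicate 1, beside medians of 4.22 and 3.47 over the arrays at 22°C. The part of the split in the likeness was not tested.

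**Figure D5:**
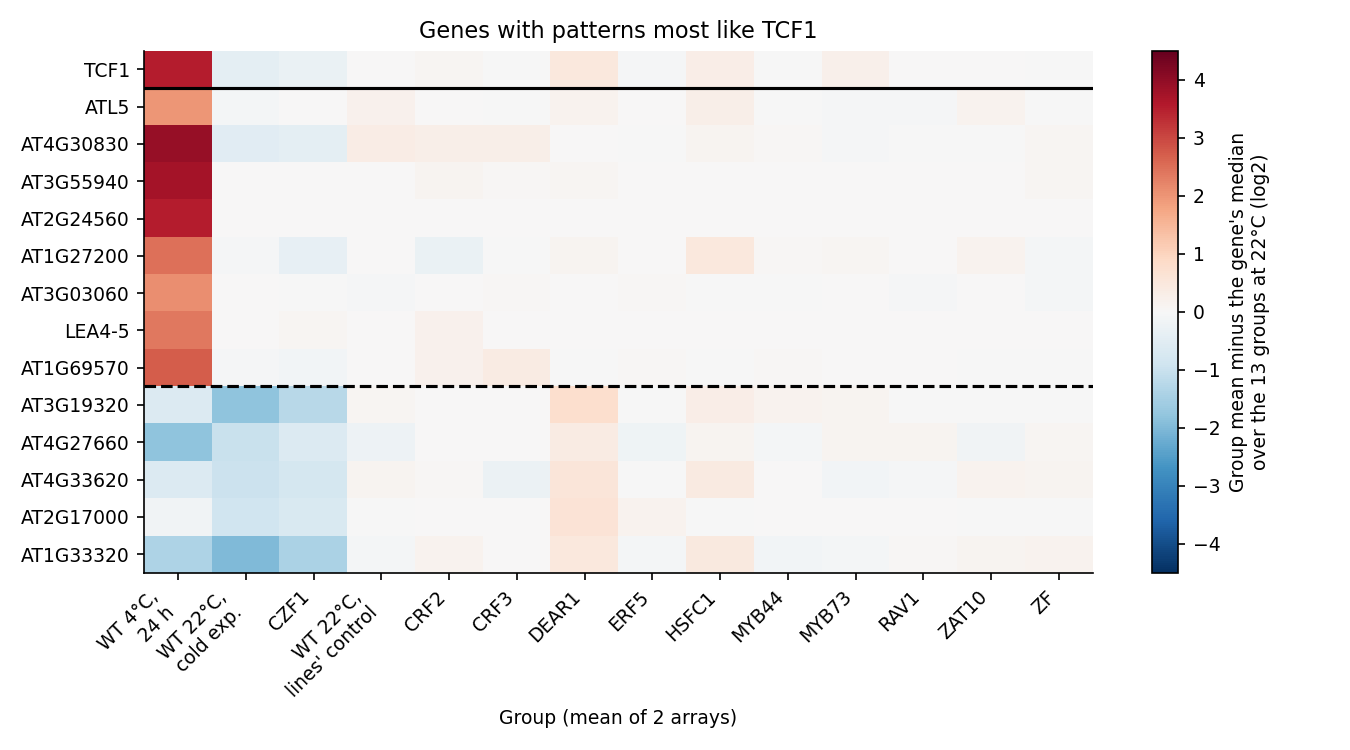
Group means (x axis, 14 groups) of TCF1, of the 8 genes most like it over all groups (above the dashed line) and of the 5 most like it at 22°C (below), coloured by the difference from the gene's median over the 13 groups at 22°C (log2). The 8 genes, chosen by a likeness that rests on the cold group, are high in the cold WT alone. The 5 are low in the warm WT of the cold experiment and in CZF1.

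Neighbours of TCF1 on chromosome 3 were looked at after the values had been seen. Of the 3 protein-coding genes on either side in assembly TAIR10.1, AT3G55590, AT3G55600 and AT3G55605 were named on the array. The nearest, AT3G55590, was below the filter with 3.04 and 3.10 in the cold and 3.10 and 3.10 in warm WT, and AT3G55600 differed by 0.11 ± 0.24 (limma adjusted p = 0.782). AT3G55605 rose from 7.61 and 7.11 to 8.52 and 8.59, by 1.19 ± 0.26 (limma adjusted p = 0.0018), where 14.1% of all tested probe sets were called higher, and kept its call whichever array was left out. Of the 2 neighbours tested, 1 was thus called, and AT3G55590 was not tested.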

How the data were processed

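Signals on a log2 scale, as deposited by the authors with 1 column for each array, were used. Per the submitters' processing notes, GCRMA and limma are named, with no version or role. The signals of the overexpressed factors' own genes were not used here. How arrays were centred is not stated. For MYB44 and MYB73 the source names were taken over the titles, which say MYB4 and MYB7.

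Of 22810 probe sets, 64 array controls were left out, and those with a log2 value over 4 in at least 2 of the 28 arrays, 15916, were tested. The platform annotation gives 1 gene for 13513, several for 503 and none for 8794, controls included. A locus of the RefSeq table (assembly TAIR10.1, coordinates used only to find the neighbours of TCF1) matched 13436. The probe set of highest mean stood for a gene. Group means of all 28 arrays were fitted with limma 3.58.1 in R 4.3.3 (lmFit, eBayes, 14 residual degrees of freedom), two-sided, with Benjamini-Hochberg adjustment over all tested probe sets within each comparison and a threshold of 0.05. The number of arrays limits the precision.

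Named genes were TCF1, members of the lists, and the 8 and 5 genes of most similar pattern. The gene, lists and rules were chosen with earlier results of these data known. COR27, AT5G16040 and the other genes named in lines are list members, and the neighbours were added after values were seen. Alternatives were the groups fitted, filters, quantile normalization, another prior, a replicate block, other WT controls, single arrays left out and, added after the array medians were seen, only arrays of the same set.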

Additional observations from a re-analysis of the deposited data

How the results depend on the processing

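The cold difference of TCF1 was 3.60 after quantile normalization and 3.78 to 4.14 with 1 array left out. Against the cold experiment's WT the TCF1 differences were 0.54 in CRF2, 0.93 in DEAR1, 0.74 in HSFC1 and 0.66 in MYB73, all past the threshold, and turned positive without passing in CRF3 (0.42), CZF1 (0.14), ERF5 (0.38), MYB44 (0.42), RAV1 (0.44) and ZF (0.42). Against the 4 WT arrays at 22°C together, TCF1 differed by 0.70 in DEAR1, 0.51 in HSFC1, 0.43 in MYB73 and 0.31 in CRF2. The differences were 0.23 in ZAT10, 0.20 in CRF3, 0.15 in ERF5, 0.19 in MYB44, 0.21 in RAV1, 0.19 in ZF and -0.09 in CZF1. None of these passed, with the lowest limma adjusted p at 0.0601 in HSFC1 and 0.0788 in DEAR1. After quantile normalization the difference in MYB44 was 0.0526, also without passing. Leaving out 1 array gave -0.045 to 0.215 in CRF2, -0.035 to 0.445 in MYB73 and -0.04 to 0.01 in RAV1. The difference of -0.46 between the 2 WT groups passed with only these groups fitted (adjusted p = 0.028), without the CRF3 arrays (adjusted p = 0.0462) and without the filter (adjusted p = 0.0448). The cause of these changes was not tested. The count of 2 lignin genes was 1 without the filter, after quantile normalization, with the replicate block and with all 4 WT arrays, and 0 to 1 with an array left out. The 4 RCC1 family calls were 3 to 6 in every alternative. With an array left out AT1G65920 ran from -1.1 to 0.1 in the cold, and passed at -1.1 without WT replicate 1 (adjusted p = 0.0495). Other signs that turned in the cold, none past the threshold, were AT5G12350 (0.0175 with all 4 WT arrays, and -0.265 to 0.025 with an array left out), AT5G19420 (-0.03 without cold replicate 2) and AT3G55600 (-0.01 and -0.16 without cold replicate 1 or WT replicate 2), and AT5G16040 in ZF (-0.30 against the cold experiment's WT). Same-numbered replicates share only a number: over 91 pairs of groups their deviations had a median correlation of -0.01. The replicate block left TCF1 at 3.96 in the cold and at 0.47 in DEAR1 and changed no TCF1 call. Signals on the flat levels near 3.39 and 3.81 limit what can be seen below them.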
